A study of Mus musculus with 3 samples.

Results

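The Iroquois genes Irx1 to Irx6 encode homeodomain transcription factors and stand in 2 clusters of the mouse genome, Irx1, Irx2 and Irx4 on chromosome 13 and Irx3, Irx5 and Irx6 on chromosome 8. The 6 genes, of 21900 protein-coding genes in the annotation, were chosen by name, with earlier results of these peak lists known, and peaks were selected by position, over each cluster from its lowest to its highest gene with 200 kb on either side. This took in 41 of the 18087 DLX3 peaks and 22 of the 16735 H3K4me3 peaks of the study. The lists come from ChIP-seq, the sequencing of DNA pulled down with an antibody from chromatin, of keratinocytes from above the basal layer of the epidermis of wild type BALB/c mice. One library was made with an antibody to DLX3, a homeodomain factor of differentiating epidermis, and one with an antibody to H3K4me3, the trimethylated lysine of histone H3 that marks promoters. A further library, made with unspecific IgG, was not analysed here. The sample labels call the animals adult, whereas the text of the series names newborn mice. Each antibody has 1 library, so no value below has a replicate spread, no test was run, and differences between genes are descriptions of these 2 lists.

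Iroquois proteins belong to the TALE class of homeodomain factors, whose homeodomain carries a loop of additional residues, and they pattern the heart, limbs, nervous system and skin appendages. The clusters arose by duplication, so that each gene has a paralogue at the matching place of the other cluster: Irx1 with Irx3, Irx2 with Irx5, and Irx4 with Irx6. The long stretches between the genes hold many conserved enhancers, and some that act on Irx3 and Irx5 lie inside introns of the neighbouring gene Fto. H3K4me3 is found at active promoters and also at promoters of developmental genes held silent by Polycomb proteins, so the mark alone is no measure of transcription.

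The labelled cell type was set beside H3K4me3 within 1 kb of an end of marker genes, a mark that 59.3% of all protein-coding genes carried there. It was found at 5 of 5 genes of basal keratinocytes, 7 of 8 of suprabasal keratinocytes (Flg lacked it) and 5 of 5 of the hair follicle. It was also found at 3 of 5 fibroblast genes, 2 of 3 Merkel cell genes and 1 of 4 melanocyte genes, and at 0 of 4 immune and 0 of 3 endothelial genes. Counts such as 3 of 5 and 2 of 3 are near that background. What share of the cells carried the mark at any gene cannot be told from a peak list, and the part of other cell types in the values below was not tested. Scores are those the authors' peak caller gave, and they were compared within a list only. The score of a DLX3 peak ran from 50.01 to 3100 over the list, with a median of 83.35.

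Promoter sequences are shown first, because only Irx2 among the Irx genes with a RefSeq promoter entry had DLX3 over it. The sequences are the 250 bases before the transcription start, 5′ to 3′ on the gene's strand, from RefSeq (GRCm38.p6, the assembly of mm10), for Irx2, Irx3 and Irx4 and for Crnde, a long non-coding RNA gene beside Irx5. Capitals mark each TAAT on either strand (ATTA when read on the other), the core that homeodomains such as that of DLX3 bind. The Irx2 sequence lies at chr13:72628570-72628819 on the plus strand, the Irx4 sequence at chr13:73260247-73260496 on the plus strand, the Irx3 sequence at chr8:91801655-91801904 on the minus strand, and the Crnde sequence at chr8:92356121-92356370 on the minus strand.
Irx2: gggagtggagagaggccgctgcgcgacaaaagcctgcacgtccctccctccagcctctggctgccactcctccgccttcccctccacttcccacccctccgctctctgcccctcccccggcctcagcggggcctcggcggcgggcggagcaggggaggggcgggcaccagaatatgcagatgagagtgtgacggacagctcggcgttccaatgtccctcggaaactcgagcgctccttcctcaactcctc
Irx4: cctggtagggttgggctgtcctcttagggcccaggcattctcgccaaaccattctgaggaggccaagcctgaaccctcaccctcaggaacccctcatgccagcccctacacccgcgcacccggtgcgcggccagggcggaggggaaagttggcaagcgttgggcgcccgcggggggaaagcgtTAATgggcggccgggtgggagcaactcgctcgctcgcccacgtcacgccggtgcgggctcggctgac
Irx3: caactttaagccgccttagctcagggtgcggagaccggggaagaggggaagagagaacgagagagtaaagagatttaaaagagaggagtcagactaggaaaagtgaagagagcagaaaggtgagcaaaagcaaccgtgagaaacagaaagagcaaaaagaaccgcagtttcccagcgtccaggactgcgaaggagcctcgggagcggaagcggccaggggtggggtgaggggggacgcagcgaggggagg
Crnde: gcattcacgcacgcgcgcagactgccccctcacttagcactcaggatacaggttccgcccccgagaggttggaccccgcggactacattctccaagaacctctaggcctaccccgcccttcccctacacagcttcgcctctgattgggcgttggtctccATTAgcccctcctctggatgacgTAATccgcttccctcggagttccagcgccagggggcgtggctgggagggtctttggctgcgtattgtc

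The Irx2 and Crnde sequences lay wholly inside a DLX3 peak and the Irx3 and Irx4 sequences touched none, while H3K4me3 covered bases of all 4. Of the 32851 promoter windows in the table, 18.2% met a DLX3 peak. The Irx2 sequence, under DLX3, held 0 copies of TAAT, and the Irx4 sequence, without DLX3, held 1. The Crnde sequence held 2 copies and the Irx3 sequence 0. TAAT occurred in 54.9% of all promoter windows, in 33.7% of those that met a DLX3 peak and in 37.5% of those with H3K4me3 and no DLX3 peak. These groups also differed in base composition, with a median GC content of 52.4%, 62.8% and 60.4%. GC content was 68.4% at Irx2, 68.8% at Irx4, 56.0% at Irx3 and 62.0% at Crnde. Neither the palindrome ACANNTGT, which Iroquois proteins bind, nor the AP-1 site TGANTCA was in any of the 4 sequences on either strand. They occurred in 6.31% and 6.75% of all promoter windows. The shares were 2.19% and 4.4% of windows that met a DLX3 peak. Of windows with H3K4me3 and no DLX3 peak, 3.28% and 3.74% held them, so their absence from 4 sequences is common. CCAAT, the box of the factor NF-Y, stood once on either strand in the Irx2 and Crnde sequences, in neither of the others, and in 33.8% of all windows. A match is a run of letters and not a shown binding site.

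H3K4me3 lay within 1 kb of an end of all 6 Irx genes, where 59.3% of protein-coding genes had it. With H3K4me3 peaks at or above the median score alone, Irx6 lacked it, and with the top 20% Irx4 and Irx6 lacked it. Its extent differed widely among them. To measure it, H3K4me3 peaks at most 500 bp apart were joined into stretches, of which the list has 16273 with a median width of 2116 bp. The stretch over Irx2 was the second widest of all at 19.1 kb and the one over Irx5 the eighth widest at 14.1 kb. Irx1, Irx4 and Irx3 followed at 6578, 6333 and 6300 bp, at ranks 244, 286 and 294, and Irx6 came last at 1755 bp, below the list's median. The widest stretch of the list measured 25.8 kb. With 1 library the order among Irx1, Irx4 and Irx3 cannot be set against any spread.

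**Figure D1:**
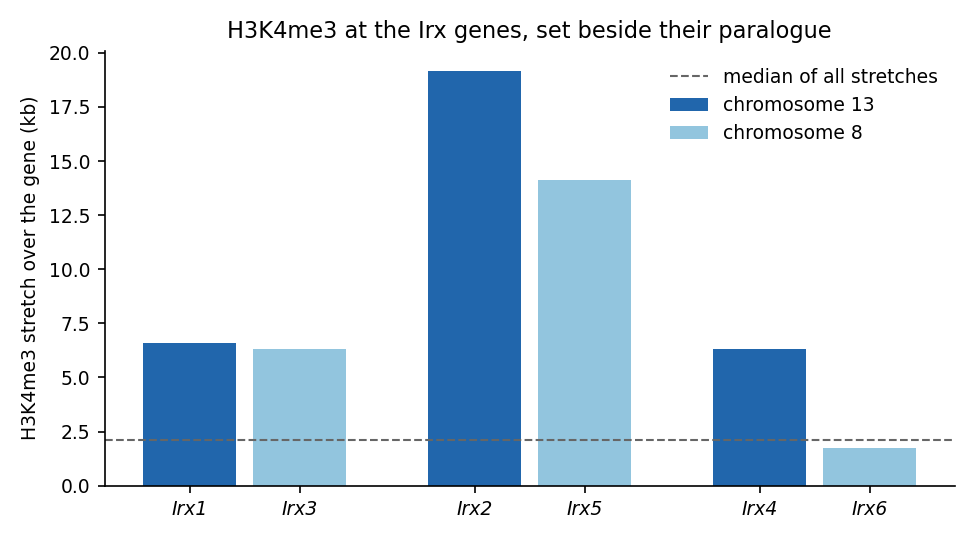
Width in kb of the H3K4me3 stretch over each Irx gene, peaks at most 500 bp apart being joined, with paralogues side by side and bars coloured by chromosome; the dashed line is the median of all 16273 stretches. Irx2 (19.1 kb) and Irx5 (14.1 kb), paralogues of each other, stand above the other 4 genes, and Irx6 lies below the median.

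Irx2 (chromosome 13, 72624430 to 72634196) stood inside the 15255 bp H3K4me3 peak from 72621745 to 72636999, the fourth widest single peak of the list. Its score of 3100 is shared by 766 H3K4me3 peaks, and 141 score higher. A further H3K4me3 peak of 3761 bp and score 897.41 stood above it, with 121 bp between them. Irx5 (chromosome 8, 92357796 to 92361456), its paralogue, also had a wide peak with a further one next to it, placed otherwise on the gene. The peak of 7984 bp at the score of 3100 (92353224 to 92361207) began below the span and ended inside it. The one of 6010 bp at 617.32 (92361334 to 92367343) began inside the span. H3K4me3 covered 100% of the span of Irx2 and 96.6% of that of Irx5, and 17.3 kb and 13.1 kb of the spans with 5 kb on either side. By this second measure Irx2 ranked 16th and Irx5 52nd among the 21900 protein-coding genes. Both stretches also covered the start of a non-coding gene. At Irx2 this was Gm20554, whose start lay 256 bp from that of Irx2 on the other strand, and at Irx5 it was Crnde, whose start lay 1676 bp from the near end of the Irx5 span.

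Irx1 and Irx3 were alike in the width of the joined H3K4me3 stretch and lacked DLX3 at the gene. Irx1 (chromosome 13, 71958232 to 71963723) was covered over 100% of its span by 1 peak of score 2245.3 (71958085 to 71964662). A small peak of score 52.2 lay 4.36 kb above the span. Irx3 (chromosome 8, 91798511 to 91801654) was covered over 91.9% of its span, mostly by a peak of 4918 bp and score 2910.01 (91798817 to 91803734). Peaks of score 84.16 and 90.5 flanked it on either side. The 6300 bp stretch of Irx3 includes the peak of score 84.16 (1128 bp). By single peaks, Irx3 had 4918 bp against 6578 bp at Irx1. The main peak also held the start of Irx3os, a non-coding gene 1682 bp from the start of Irx3 on the other strand.

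Irx4 and Irx6 had the largest ratio of stretch widths within a pair, while Irx2 and Irx5 differed by more in bp. Irx4 (chromosome 13, 73259589 to 73269622), known for its expression in the ventricles of the heart, had a peak of 6333 bp and score 1356.16 over its lower part (73259649 to 73265981), covering 63.1% of the span. Irx6 (chromosome 8, 92674289 to 92680956) had a peak of 1755 bp and score 147.85 (92673179 to 92674933), which covered 9.67% of the span at its lower end. Of all H3K4me3 peaks, 80.6% scored at least as high as the one at Irx6.

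DLX3 peaks lay within 5 kb of an end of 3 of the 6 genes, Irx2, Irx4 and Irx5. Over all protein-coding genes the share was 35.8%, so that the count of 3 was not read as particular to the Irx genes. At Irx2 a peak of 1469 bp and score 225.52 (72628259 to 72629727) was centred 173 bp from the transcription start, and 6.09% of the list scored at least as high. At Irx5 the peak (92355695 to 92356525, score 114.8) ended 1271 bp below the gene span and was centred 10 bp from the start of Crnde. At Irx4 there were 2 small peaks inside the gene, of score 58.65 (73262866 to 73263624) and 98.22 (73264054 to 73264482), the nearer centred 2748 bp from the start given in the promoter table. All 4 peaks lay inside H3K4me3. The annotation gives spans without exons, so whether the peaks in Irx4 are exonic or intronic was not determined.

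Irx1 and Irx6 had no DLX3 peak over their span with 200 kb on either side, and Irx3 had its nearest at 47.8 kb. The nearest DLX3 peak to Irx1 lay 227 kb above it and the nearest to Irx6 202 kb above it, just past the edge of the window. Such a lack of peaks was found for 19.1% of all protein-coding genes and for 5.28% of those with H3K4me3 within 1 kb of an end. Irx1 stood in a stretch of 970 kb without DLX3 peaks, Irx6 in one of 503 kb and Irx3 in one of 290 kb. The median distance between neighbouring DLX3 peaks was 31.5 kb, and 6.29% of these distances were over 400 kb. These figures count each distance once, whereas long distances cover more of the genome than short ones. They therefore do not give how often a gene stands in such a stretch. Irx1 and Irx3 thus combined high-scoring H3K4me3 with no DLX3 peak within 5 kb, whereas Irx6 had little of either.

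Most DLX3 peaks of the clusters lay away from the genes. Of the 41 peaks in both windows, 32 were centred more than 20 kb from any Irx gene and 30 more than 20 kb from an end of any protein-coding gene (73.2%), against 36.6% in the whole list. H3K4me3 was absent from 33 of them, and 8 shared at least 1 bp with it (19.5%, 95% Wilson interval 10.2 to 34.0, counting error only), against 42.1% over the whole list. On chromosome 13, 7 of 26 shared bases with H3K4me3 (26.9%, 13.7 to 46.1), and on chromosome 8, 1 of 15 (6.67%, 1.19 to 29.8). The intervals treat peaks as independent, although both peaks in Irx4 shared the same H3K4me3 peak, and they were not read as a test. Each window touched 6 protein-coding genes, over 1.71 Mb on chromosome 13 and 1.28 Mb on chromosome 8. All chromosomes held 21900 over 2700 Mb. The part of this gene spacing in the shares above was not tested.

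On chromosome 13 the 26 DLX3 peaks were spread unevenly. The 661 kb between Irx1 and Irx2 held 7, Irx2 itself 1, the 625 kb between Irx2 and Irx4 held 13, Irx4 itself 2, and the 200 kb above Irx4 held 3. The 200 kb below Irx1 held 0. Of the 13 between Irx2 and Irx4, 9 fell in a run of 77.7 kb that began 57.5 kb above Irx2 (72691698 to 72769434). Counted from each DLX3 peak of the list, 3.9% of 100 kb windows held 9 or more peaks, and the median was 3.

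The highest score of both clusters belonged to the first peak of this run, a peak of 2135 bp centred 58.6 kb above Irx2 (chromosome 13, 72691698 to 72693832; score 959.68). It ranked 12th of all 18087 DLX3 peaks and ninth of the 10472 without H3K4me3. The run also held a peak of score 525.06 (72710883 to 72712426; rank 55), which overlapped a weak H3K4me3 peak of score 50.8, and one of score 290.65 (72766896 to 72767631). A last peak of the run, of score 159.78 (72768432 to 72769434), overlapped H3K4me3 of score 86.62. The remaining 5 scored between 63.81 and 191.43, and none of them overlapped H3K4me3. No protein-coding gene has an end within 50 kb of any peak of this run. The nearest annotated gene below it is the non-coding gene Gm41001 (72669467 to 72676554). Above it the nearest is D730050B12Rik (72809601 to 72816763), also non-coding and farther from the run.

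A second strong site stood between Irx1 and Irx2, 235 kb above Irx1 and 426 kb below Irx2 (72198194 to 72199298; score 643.46). It ranked 32nd in the list and 17th among peaks without H3K4me3. A peak of score 166.18 lay beside it (72190358 to 72190946), and a peak of score 282.07 lay 230 kb above Irx2 (72863570 to 72864827). In all, 5 of the 26 peaks were among the top 5% of the list by score. The weaker peaks of the window went down to 52.34.

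**Figure D2:**
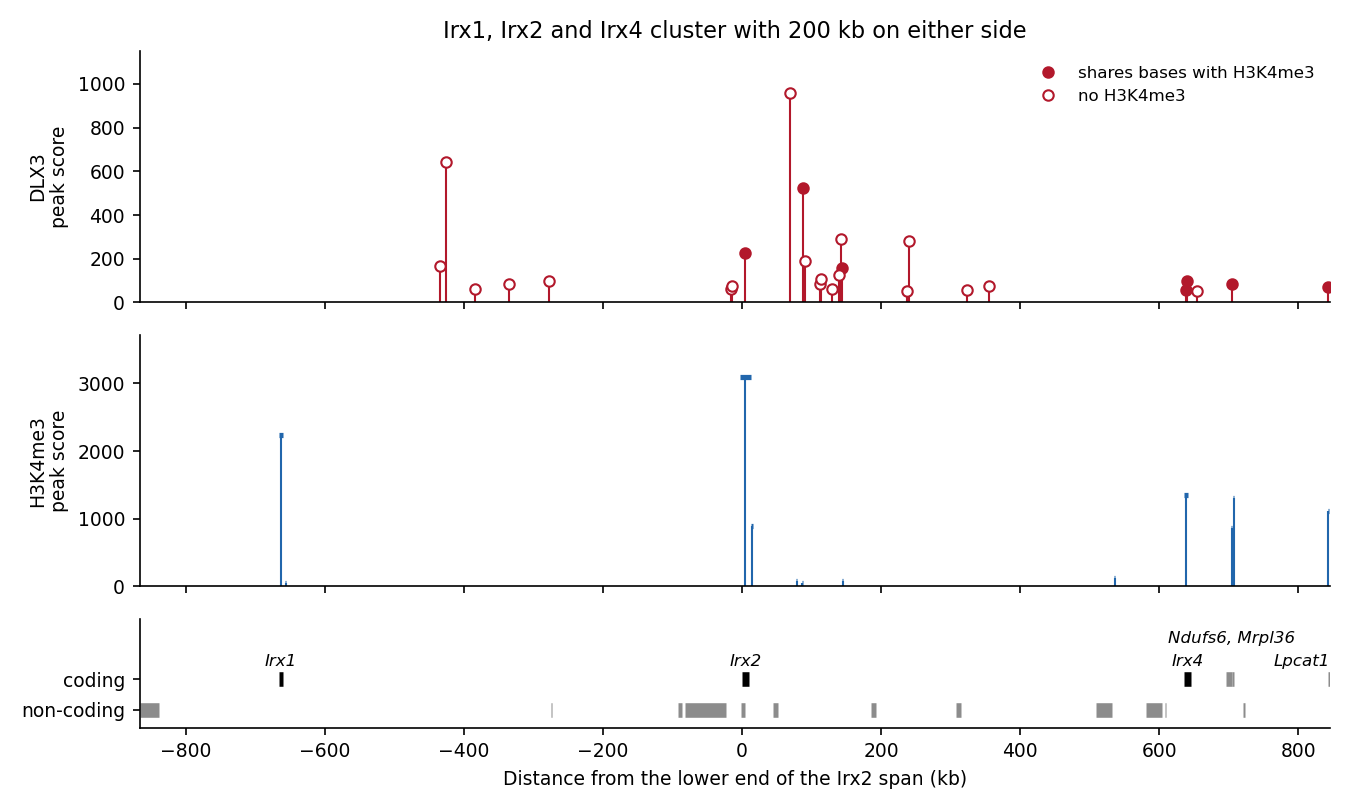
DLX3 and H3K4me3 peaks of the chromosome 13 window by distance from the lower end of the Irx2 span (kb), with peak score on the vertical axes and coding and non-coding genes below (Irx genes in black); filled circles share bases with H3K4me3, and blue caps give peak width. The highest DLX3 scores, 959.68, 643.46 and 525.06, lie between genes, while H3K4me3 is highest at Irx1, Irx2 and Irx4.

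On chromosome 8, 13 of the 15 DLX3 peaks lay in the 556 kb between Irx3 and Irx5, 2 lay in the 313 kb between Irx5 and Irx6, and 0 in the 200 kb on either outer side. They formed a group of 4 at 108 to 145 kb above Irx3, with scores from 75.33 to 125, and a group of 6 at 105 to 199 kb below Irx5. The second group held the highest scores of the window, 325.62 (92252715 to 92253386), 309.75 (92166915 to 92167779) and 189.26 (92193424 to 92194245), and none of its peaks overlapped H3K4me3. It spanned 95.4 kb, and 15.1% of 100 kb windows counted from a DLX3 peak held 6 or more. The 2 highest ranked 344th and 411th in the list and were the only ones of this window in its top 5%. Both peaks above Irx5 were weak, at 51.93 and 75.33.

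**Figure D3:**
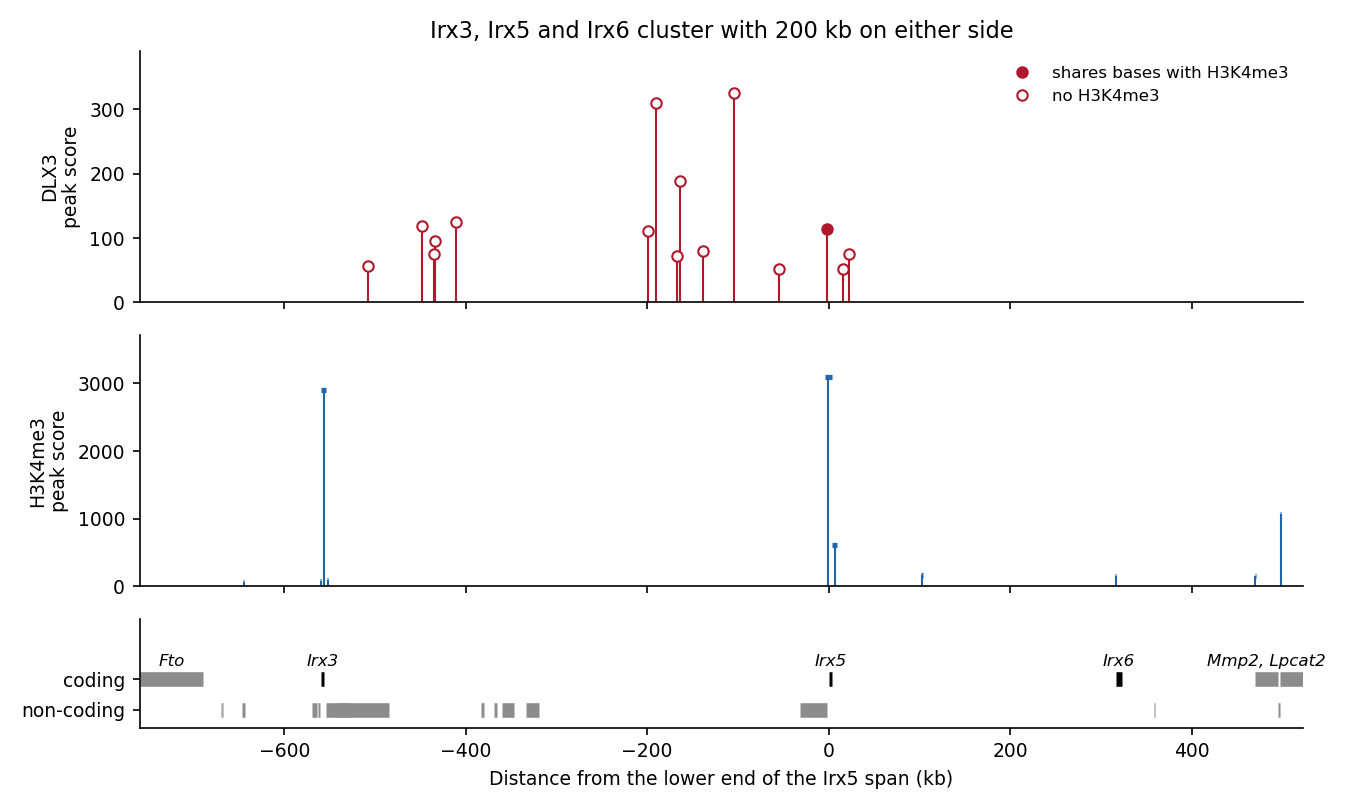
DLX3 and H3K4me3 peaks of the chromosome 8 window by distance from the lower end of the Irx5 span (kb), drawn as on the map of chromosome 13. DLX3 peaks lie between Irx3 and Irx5 and just above Irx5, the 1 filled circle being the peak at Crnde, and none lies around Irx6, where H3K4me3 scores 147.85.

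Score and distance did not go together simply. The 4 peaks within 5 kb of an Irx gene scored 58.65, 98.22, 114.8 and 225.52. All 7 peaks of both windows that were in the top 5% of the list lay more than 50 kb from an Irx gene, as did 31 of the 41 peaks in all, and 6 of the 7 lacked H3K4me3. In the whole list, 39.3% of peaks in the top 5% lacked it. The peaks without H3K4me3 had a median score of 86.5 on chromosome 13 and 87.6 on chromosome 8, against 76.83 for all 10472 peaks without it, and a 90th percentile of 361 and 274 against 164.

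**Figure D4:**
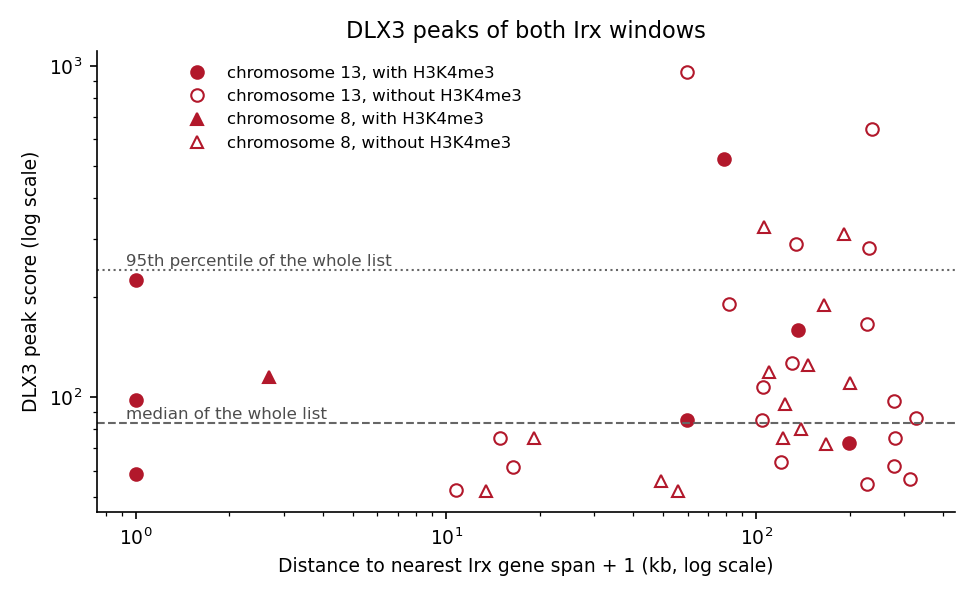
Score of each of the 41 DLX3 peaks against the distance of its centre from the nearest Irx gene span (both axes log, 1 kb added to the distance); circles are chromosome 13, triangles chromosome 8, filled where H3K4me3 is shared, and lines give the median (83.35) and 95th percentile (242.32) of the list. The 7 peaks above the upper line all lie beyond 50 kb.

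The other annotated genes of the windows were read by the same rule. On chromosome 13 all 3 other protein-coding genes of the window had DLX3 within 5 kb of an end and H3K4me3 within 1 kb, where 35.8% and 59.3% of all protein-coding genes had them. Ndufs6, which encodes a subunit of respiratory complex I, and Mrpl36, a mitochondrial ribosomal protein gene, share 1 DLX3 peak of score 85.61 (73328263 to 73328627). Lpcat1, an acyltransferase gene of phospholipid synthesis, had a peak of score 72.6 (73466872 to 73467375), 2.5 kb inside the edge of the window. On chromosome 8 none of the 3 others, Fto, the protease gene Mmp2 and the acyltransferase gene Lpcat2, had DLX3 within 5 kb of an end, and all had H3K4me3. Fto held 6 DLX3 peaks along its whole span, the highest of score 189.27 and 265 kb below Irx3 (91532749 to 91533968), none overlapping H3K4me3 and none inside the window. Lpcat2, which reaches past the edge of the window, held 3 DLX3 peaks along its span. The highest of these scored 112.08 (92882970 to 92883723), and none lay inside the window. Of the non-coding RNA genes called lncRNA, 1 of 10 on chromosome 13 (Gm20554) and 1 of 11 on chromosome 8 (Crnde) had DLX3 within 5 kb. The share over all lncRNA genes was not computed, and that of protein-coding genes does not stand in for it. These 2 counts were therefore not read as few or many. The next DLX3 peaks outside the windows scored 96.7 and 58.53 on chromosome 13 and 50.8 and 112.08 on chromosome 8.

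DLX3 peaks numbered 15.2 per Mb in the chromosome 13 window and 11.7 per Mb in the chromosome 8 window, against 6.69 per Mb over all chromosomes. Dividing the autosomes into consecutive windows of the same length, 14.8% held at least 26 DLX3 peaks and 24.9% at least 15. H3K4me3 peaks numbered 7.01 and 7.8 per Mb, against 6.19, and covered 2.54% and 2.23% of the windows, against 1.43%. The Hox clusters, taken by the same rule, gave 4.02 (Hoxd) to 24.4 (Hoxb) DLX3 peaks per Mb and 30.2 (Hoxd) to 48.5 (Hoxc) H3K4me3 peaks per Mb. The Dlx pairs gave 14.3 (Dlx1 and Dlx2), 75.1 (Dlx3 and Dlx4) and 11.9 (Dlx5 and Dlx6) DLX3 peaks per Mb, and 21.5, 35.2 and 7.16 H3K4me3 peaks per Mb, the last of these next to the Irx windows. These windows were between 0.419 and 0.574 Mb long and the Irx windows 1.71 and 1.28 Mb. DLX3 peaks sharing bases with H3K4me3 made up 37.5% to 100% of the peaks in them, the latter being 2 of 2 at Hoxd. None of these differences was tested.

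**Figure D5:**
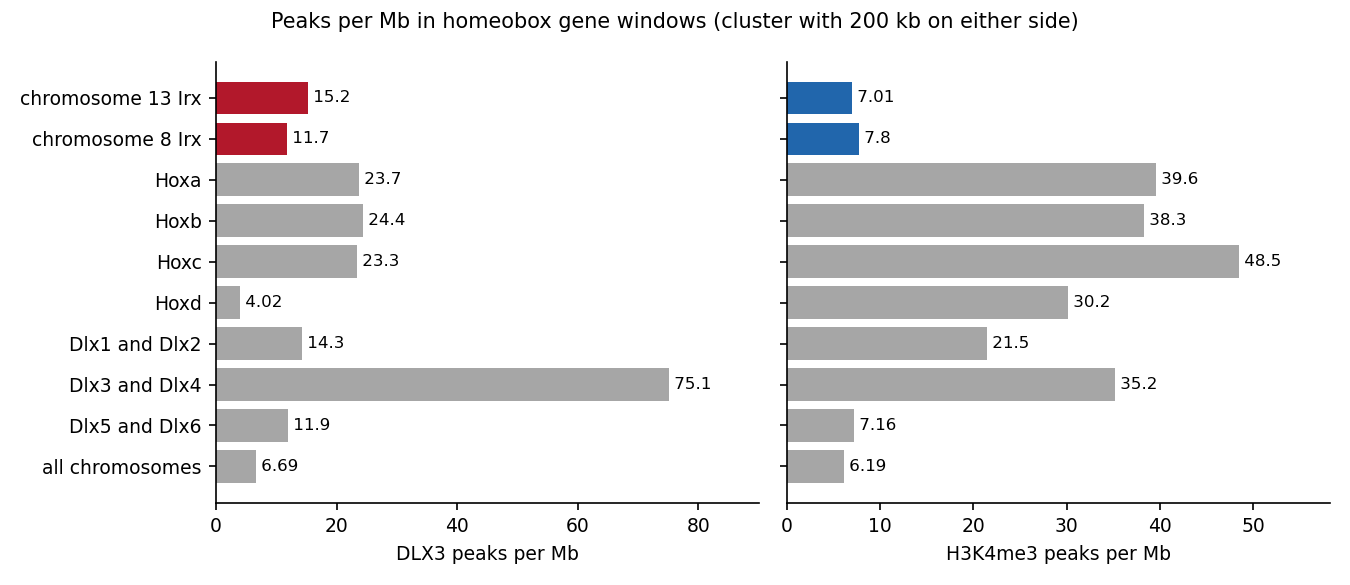
DLX3 (left) and H3K4me3 (right) peaks per Mb in the Irx windows, in colour, and in Hox and Dlx windows and over all chromosomes, in grey. The Irx windows stand at 15.2 and 11.7 DLX3 peaks per Mb, above all chromosomes (6.69), and near all chromosomes in H3K4me3.

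The other TALE-class genes, Meis, Pbx, Pknox, Tgif and Mkx, encode partners of Hox proteins or repressors. Of these 12 genes, 5 had DLX3 within 5 kb of an end and 12 had H3K4me3 within 1 kb, against 35.8% and 59.3% of all protein-coding genes. The DLX3 count is near that background. The highest DLX3 scores were at Tgif1 (372.16), a repressor gene, Pbx2 (114.83) and Pknox1 (102.02). Meis1 had a DLX3 score of 56.78, with an H3K4me3 peak of 8481 bp. None of the 12 reached the 17.3 kb of H3K4me3 at Irx2 over the span with 5 kb on either side, the highest being Meis1 at 11025 bp.

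Genes with a like pattern were sought by 4 values: the percent covered by DLX3 and by H3K4me3 over the span with 5 kb and with 100 kb on either side. Irx2 (7.43% DLX3 and 87.7% H3K4me3 with 5 kb) and Irx5 (6.08% and 95.9%) had the same 3 nearest genes, Zfp503, a repressor gene (13.4% and 82.9%), Ccr10, a chemokine receptor gene, and Cdkn1b, a cell cycle inhibitor gene. They lay 8.1, 10.4 and 11.3 percentage points from Irx2 and 15.0, 18.5 and 19.4 from Irx5. Maf and Actrt3 were among the genes nearest to Irx1 (0.872 and 2.6 points), and Irx3 was nearest to Adm, Shh and Rpl35 (1.94, 2.21 and 3.2 points). Irx4 was nearest to Ranbp1, Atf4 and Tfap2c, an AP-2 factor gene of epidermis (1.07, 1.15 and 1.68 points), and Irx6 to 4930426D05Rik, Fam217b and Nap1l3 (0.1, 0.22 and 0.31 points). The likeness rests on 1 library per antibody.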

How the data were processed

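Per the submitters' processing notes, Bowtie 1.1.2, MACS 1.4.2 and HOMER were used with build mm10; settings and the control behind the calls: not given in the sources used here. Both lists analysed, 1 for the DLX3 library and 1 for the H3K4me3 library, were deposited by the authors with a score for each peak. The score looks like that of MACS 1.4, a scaled log10 of the p-value, which depends on depth and width. Read depth is unknown, and intervals cover counting error only.

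Positions count from 1. Gene spans came from a RefSeq table of GRCm38.p6, and starts and strand from its promoter table. Overlap required 1 bp. A gene was counted with DLX3 where a peak came within 5 kb of an end of the span, and with H3K4me3 within 1 kb. Python 3.11.15, pandas 2.3.3 and scipy 1.17.1 were used, and the interval functions were checked against direct counting on simulated intervals. Density per Mb is over first to last annotated gene of each chromosome. Named genes are the Irx genes, the annotated genes in their windows, the 4 TALE-class genes with the highest DLX3 scores and the 3 genes most alike each member; Meis1 was named after its values were seen, and some genes the rule names are not reported here. The joining of H3K4me3 peaks, the 100 kb runs, and the promoter windows and motifs were also chosen then. Members and lists were chosen with earlier results of these data known.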

Additional observations from a re-analysis of the deposited data

How the results depend on the processing

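Of the 6 Irx genes, 3 had DLX3 within 5 kb or 20 kb of an end, but 0 within 1 kb (over all protein-coding genes 50.4% at 20 kb and 27.6% at 1 kb); the Irx2 span starts upstream of the RefSeq start that its peak covers. With the top 20% of DLX3 peaks, 1 did (Irx2). The share of all protein-coding genes with DLX3 at that setting was not computed, so the fall was not read as particular to the Irx genes. For the TALE-class genes a window of 20 kb gave 8 of 12. Peaks at or above the median score gave 9.35 (chromosome 13) and 6.24 (chromosome 8) DLX3 peaks per Mb and 4.09 and 2.34 H3K4me3 peaks per Mb; the top 20% gave 5.26, 2.34, 1.17 and 1.56. Relative to the whole list so restricted, DLX3 in the chromosome 13 window went from 2.27-fold to 2.79-fold and 3.93-fold, and on chromosome 8 from 1.75-fold to 1.86-fold and 1.75-fold. H3K4me3 went from 1.13-fold to 1.32-fold and 0.943-fold on chromosome 13, and from 1.26-fold to 0.756-fold and 1.26-fold on chromosome 8. Within the top 20% of both lists, DLX3 peaks sharing H3K4me3 fell to 11.1% on chromosome 13 (1 of 9) and 0% on chromosome 8 (0 of 3), against 25.3% of the whole list so restricted; at or above both medians they were 18.8% (3 of 16) and 12.5% (1 of 8), against 37.2%. H3K4me3 lay at 5 of 6 Irx genes when H3K4me3 peaks below the median score were left out and at 4 of 6 with the top 20% (40.5% and 17.6% of protein-coding genes). Flanks of 100 or 500 kb and stricter overlap moved no value by more than 1.5 times. The order of the 2 windows in DLX3 density did depend on the flank. With 100 kb it was 16.5 per Mb on chromosome 13 and 13.9 on chromosome 8, and with 500 kb it was 12.1 and 13.8. Leaving out a replicate was not possible with 1 library per antibody.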
